A study of Mus musculus with 9 samples.

Results

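The AP-1 transcription factor genes Fos, Fosb, Fosl1, Fosl2, Jun, Junb, Jund, Batf, Batf3 and Atf3 were examined in helper (CD4+) T lymphocytes from lymph nodes of male C57BL/6 mice. They were picked by gene symbol, and all 10 had a line in the deposited count table of 39017 genes and were among the 14693 genes tested. The cKO group had 4 samples (replicates 2, 6, 7 and 8) in which the only copy of Kdm6a, on the X chromosome, was floxed and the CD4-Cre transgene was present, labelled CD4-Cre (+/-). The WT group had 5 samples (replicates 1, 3, 4, 5 and 9) with the same floxed allele and no Cre, labelled CD4-Cre (-/-). The series asked how expression in CD4+ T cells depends on Kdm6a, which encodes a demethylase of histone H3 lysine 27. CD4-Cre acts from the stage of thymic development at which CD4 is first expressed, so the deletion precedes the mature cell, and an effect of Cre itself cannot be told apart from loss of Kdm6a. The labels give neither the age of the mice nor whether each sample came from a separate mouse, so the p-values measure sample-to-sample spread that may be technical. No stimulation of the cells is named in the labels, although the name of the deposited table contains the word "stim".

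AP-1 is a family of paired factors with a basic DNA-binding region and a leucine zipper. Fos proteins bind DNA only when paired with a Jun protein, while Jun proteins also pair with each other, with Batf and with ATF proteins. In T cells, signals from the antigen receptor reach the Fos and Jun genes through MAP kinases, and AP-1 then binds with NFAT at genes such as Il2, or, as Batf with a Jun partner, with Irf4 at genes of differentiating helper cells. Several of the genes are immediate-early genes, transcribed within minutes of a signal without new protein synthesis.

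Levels below are CPM when samples are compared, that is, counts scaled by the sample's total over the tested genes times a normalization factor (TMM). When genes are compared they are TPM, which divides raw counts by exonic length and scales them to the sample's sum. A gene is said to have risen or fallen where edgeR's quasi-likelihood test gave a p below 0.05 after Benjamini-Hochberg adjustment across all tested genes. Of the 10 genes, Jun rose in cKO, Jund fell, and the other 8 did not pass the test. That is 20% of the family, against 15.8% of all genes tested (7% higher and 8.82% lower in cKO), so the share called was near that of the whole table. The median log2 fold change of the 10 genes, cKO over WT, was 0.24, against 0.0012 for all genes. That median was not stable, being 0.47 without WT 1, 0.36 without cKO 7, 0.12 without cKO 6, 0.099 without WT 4, 0.089 without WT 9, -0.036 without cKO 2 and -0.14 with 1 surrogate variable, an unlabelled direction of variation estimated from the data. Jund was the 1 gene whose groups did not overlap, a property of 15.9% of all genes tested (7.08% higher and 8.78% lower in cKO). RNA was taken from bulk samples, in which fewer cells of a type and less RNA per cell cannot be told apart.

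Total counts ran from 20587482 to 23820732 in cKO samples and from 21482927 to 26387488 in WT samples. Kdm6a itself averaged 42.7 ± 1.48 CPM in cKO and 62.7 ± 1.59 CPM in WT (SD, n = 4 and 5), a drop of 31.9% without overlap (edgeR adjusted p = 2.9e-05), counted over the whole gene and not over the deleted part. Of 8 genes that define CD4+ T cells, Cd4 (901 to 1007 CPM in cKO and 824 to 925 CPM in WT) and Cd5 rose and the antigen receptor and signalling genes Cd3d, Cd3g and Lck fell, with log2 fold changes of 0.13, 0.23, -0.19, -0.23 and -0.20, while the sum of the 8 was 3048 to 3245 CPM in cKO and 3030 to 3240.4 CPM in WT. That is 62.5% called, against 15.8% of all genes. The Cd4 call was lost without WT 1, 3, 4 or 5 or cKO 6, 7 or 8. The Cd3d and Cd3g calls were lost without WT 3, 4, 5 or 9 or cKO 2, 6 or 8. Of the neutrophil markers S100a8, S100a9, Ly6g and Elane were at 0 in all samples, and so was Clec9a of the dendritic markers. The 7 dendritic markers summed to 556 to 648 CPM in cKO and 466 to 608 CPM in WT, and 5 of them stayed below 1 CPM. The 7 stroma and vessel markers summed to 84.9 to 106 CPM in cKO and 97.1 to 119 CPM in WT, and 6 of them stayed below 1 CPM. Only Zbtb46 and Ccr7 of the dendritic markers and Pecam1 of the stroma and vessel markers had enough counts to be tested. Each of these 2 sums thus rests on 1 or 2 genes and does not measure how many such cells were present. The summed level of the 8 B cell markers was 3.26 to 5.19 CPM in cKO and 3.68 to 6.16 CPM in WT, and that of the 8 macrophage and monocyte markers 18.0 to 21.7 CPM in cKO and 16.1 to 20.4 CPM in WT. The 6 natural killer markers summed to 13.1 to 50.5 CPM in cKO and 7.10 to 20.1 CPM in WT. The 2 CD8 markers summed to 15.12 to 19.1 CPM in cKO and 11.9 to 15.08 CPM in WT, without overlap. Of the tested markers, 1 of 6 B cell genes fell (Cd79b, log2 fold change -0.91, edgeR adjusted p = 0.0104). In addition 1 of 3 macrophage and monocyte genes fell and 1 of 2 CD8 genes rose (Cd8b1), against 15.8% of all genes called. The Cd8b1 call was lost without cKO 2, 6 or 8 or WT 3, 5 or 9. Mitochondrial genes took 2.59% ± 0.138 of counts in cKO and 2.38% ± 0.0572 in WT (two-sided exact permutation p = 0.0159, the smallest possible being 0.00794).

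The promoters of Jun and Atf3 are shown because Jun rose in cKO and Atf3 varied most between samples, and because both windows hold letters of the kind that Jun-ATF pairs are known to bind. The sequences come from RefSeq on GRCm38.p6, the minus strand in both cases, and run from 250 bases before to 50 bases after the RefSeq start of the gene. Capitals mark matches to TNACNTCA, a motif of 8 letters chosen after these promoters had been read.
Jun, chr4:95052173-95052472: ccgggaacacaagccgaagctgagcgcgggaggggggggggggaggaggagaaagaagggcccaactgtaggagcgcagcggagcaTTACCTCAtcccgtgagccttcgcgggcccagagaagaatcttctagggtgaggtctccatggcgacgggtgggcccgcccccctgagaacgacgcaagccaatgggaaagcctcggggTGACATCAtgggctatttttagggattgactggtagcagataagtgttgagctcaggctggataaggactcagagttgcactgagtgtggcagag
Atf3, chr1:191183284-191183583: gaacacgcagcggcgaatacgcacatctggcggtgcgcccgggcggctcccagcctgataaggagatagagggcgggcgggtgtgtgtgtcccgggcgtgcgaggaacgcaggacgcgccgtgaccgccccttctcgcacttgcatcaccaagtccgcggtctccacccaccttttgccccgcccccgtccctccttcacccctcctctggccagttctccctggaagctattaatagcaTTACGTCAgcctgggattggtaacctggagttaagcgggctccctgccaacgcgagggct

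The Jun window holds TTACCTCA with its first base 164 bases before the start and TGACATCA 45 bases before it, and the Atf3 window holds TTACGTCA 10 bases before the start. The Atf3 window lies at an internal start of the gene, 7 bases from a GENCODE transcript start, while the start used for Jund is 1210 bases from the nearest GENCODE transcript start, so its window need not be the promoter of the RNA counted here. Promoter windows were found for 9 of the 10 genes, and TNACNTCA, searched on both strands, was in 3 of them (Jun, Atf3 and Jund) and in 16.4% of all 32851 windows. The shorter AP-1 motif TGANTCA, also searched on both strands, was in 0 of the 9 windows and in 7.81% of all windows. A match is only a match of letters, and no match says nothing of the factor beyond this window.

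Per unit of length, Jund and Junb were the most abundant AP-1 transcripts and Fosb the least. Over the 9 samples Jund averaged 1006 ± 225 TPM, Junb 664 ± 202 TPM and Batf 122 ± 19.8 TPM (SD). The middle of the order was Jun at 27.5 ± 7.09, Atf3 at 22.6 ± 15.3, Fos at 12.0 ± 2.74 and Fosl2 at 11.9 ± 5.94 TPM. At the low end Fosl1 had 4.39 ± 1.74, Batf3 2.39 ± 1.11 and Fosb 1.06 ± 0.497 TPM. Neighbours in this order overlapped in their sample values except at 2 places, between Junb and Batf and between Batf and Jun. Jund exceeded Junb on average, but in cKO samples 2 and 6 Junb was the higher, with Junb over Jund ratios of 1.06 and 1.13.

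**Figure D1:**
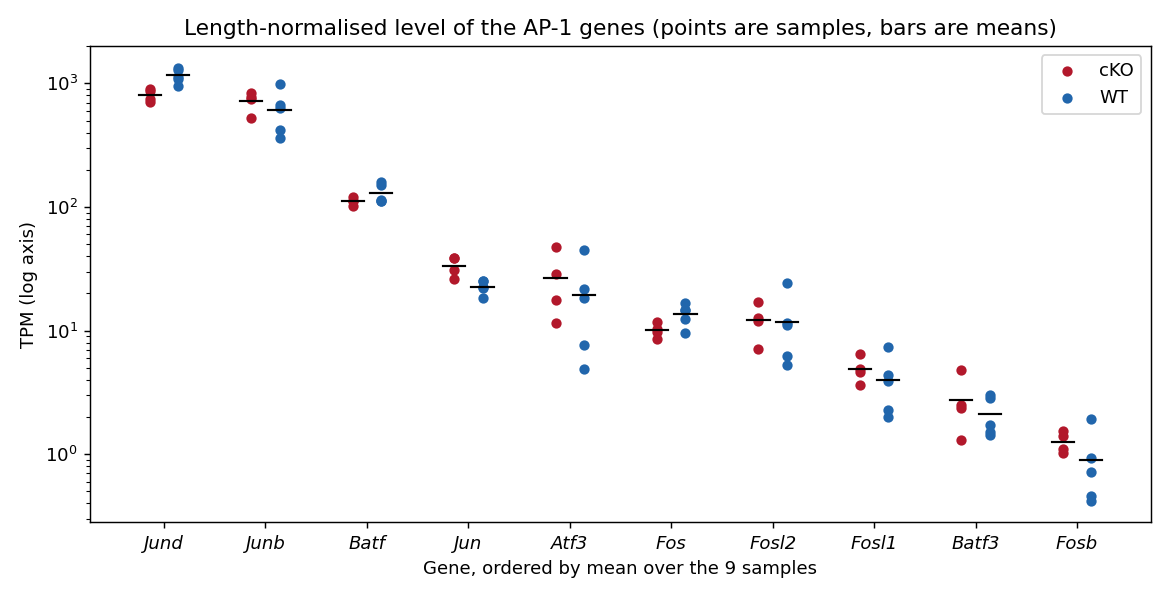
TPM on a log axis for the 10 AP-1 genes in order of their mean over 9 samples, with a point per sample (cKO left of WT for each gene) and a bar at each group's mean. Jund and Junb stand above all other genes in every sample and Fosb near 1.06 TPM, and only around Batf is there a gap to both neighbours.

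The 3 Jun genes held nearly all of the family's length-normalised RNA, 90.2% ± 1.44 of the summed TPM of the 10 genes in cKO and 91.0% ± 1.44 in WT (SD, n = 4 and 5). Batf, Batf3 and Atf3 together held 8.11% ± 1.17 in cKO and 7.55% ± 1.11 in WT, and the 4 Fos genes 1.64% ± 0.297 in cKO and 1.48% ± 0.382 in WT. These shares differed between the groups by less than their SD. The summed TPM of the family was 1586 to 1839 in cKO and 1779 to 2403 in WT.

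Jund, a Jun protein that most resting cells express and that slows division in fibroblasts, fell in cKO. The gene (ENSMUSG00000071076) lies at chr8:70698949-70700616 on the plus strand of mm10. It had 358, 372, 447 and 432 CPM in cKO samples 2, 6, 7 and 8, against 580.5, 556, 648, 498 and 685 CPM in WT samples 1, 3, 4, 5 and 9. Every cKO sample was below every WT sample, the nearest being cKO 7 and WT 5. The means were 402 ± 43.8 CPM in cKO and 593 ± 74.2 CPM in WT, and the log2 fold change was -0.56 (SE 0.09, edgeR adjusted p = 0.0036), a level 32.2% lower. The call held in each of the 19 alternative analyses.

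The antisense gene Gm11175 lies within Jund on the opposite strand and overlaps it over 919 bases. Its level ran from 162 to 201 CPM in cKO and from 222 to 307 CPM in WT, and it too fell, by a log2 fold change of -0.55 (SE 0.10, edgeR adjusted p = 0.0041). Gm11175 counts were 44.5% to 45.2% of Jund counts in cKO samples and 44.3% to 44.8% in WT samples, an almost fixed proportion. The strand setting of the counting is not given in the sources used here, so reads of the 2 genes cannot be told apart, and the fall applies to the locus.

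Jun, the partner with which Fos was first described and a target of the JNK kinases, rose in cKO. Its gene (ENSMUSG00000052684) lies at chr4:95049034-95052222 on the minus strand. The level was 36.8, 36.8, 24.9 and 29.6 CPM in cKO samples 2, 6, 7 and 8, against 24.7, 21.3, 21.7, 25.1 and 17.9 CPM in WT samples 1, 3, 4, 5 and 9. Only cKO 7 came below any WT sample, and that was WT 5. Jun averaged 32.0 ± 5.85 CPM in cKO and 22.1 ± 2.94 CPM in WT, a log2 fold change of 0.54 (SE 0.13, edgeR adjusted p = 0.0166) or a level 45.0% higher. The rise rested in part on cKO 6, without which it was 0.46 (edgeR adjusted p = 0.0563). The antisense gene Junos, which shares 689 bases with Jun, was at 1.88 to 2.91 CPM in the 9 samples and had a log2 fold change of 0.14 (edgeR adjusted p = 0.583).

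Junb, which pairs with Batf in Th17 cells, lies at chr8:84974484-84978718 on the minus strand and did not pass the test. It had 522, 580.4, 361 and 534 CPM in cKO samples 2, 6, 7 and 8, against 695, 469, 294, 455 and 254 CPM in WT samples 1, 3, 4, 5 and 9. WT 1 was above all cKO samples, and WT 4 and WT 9 were below all of them. The means of 499 ± 95.7 CPM in cKO and 433 ± 175 CPM in WT gave a log2 fold change of 0.20 (SE 0.25, edgeR adjusted p = 0.621). Junb overlaps the peroxiredoxin gene Prdx2 over 351 bases, and Prdx2, at 114 to 141 CPM, had a log2 fold change of 0.15 (SE 0.04, edgeR adjusted p = 0.0292).

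The shares of the 3 Jun genes in their summed TPM overlapped between the groups for Jund and Junb and did not for Jun. Jun made up 2.14% ± 0.372 of Jun family TPM in cKO and 1.27% ± 0.186 in WT, and Jund 51.7% ± 7.26 in cKO (45.8% to 61.9%) and 65.1% ± 10.6 in WT (52.9% to 78.0%). Junb held 46.1% ± 6.96 in cKO (36.3% to 51.8%) and 33.6% ± 10.5 in WT (20.9% to 45.9%). The Jund over Jun ratio was 18.6 to 34.3 in cKO samples and 37.9 to 73.3 in WT samples, so it did not overlap between the groups. It follows from the levels of the genes above and carries no test of its own.

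**Figure D2:**
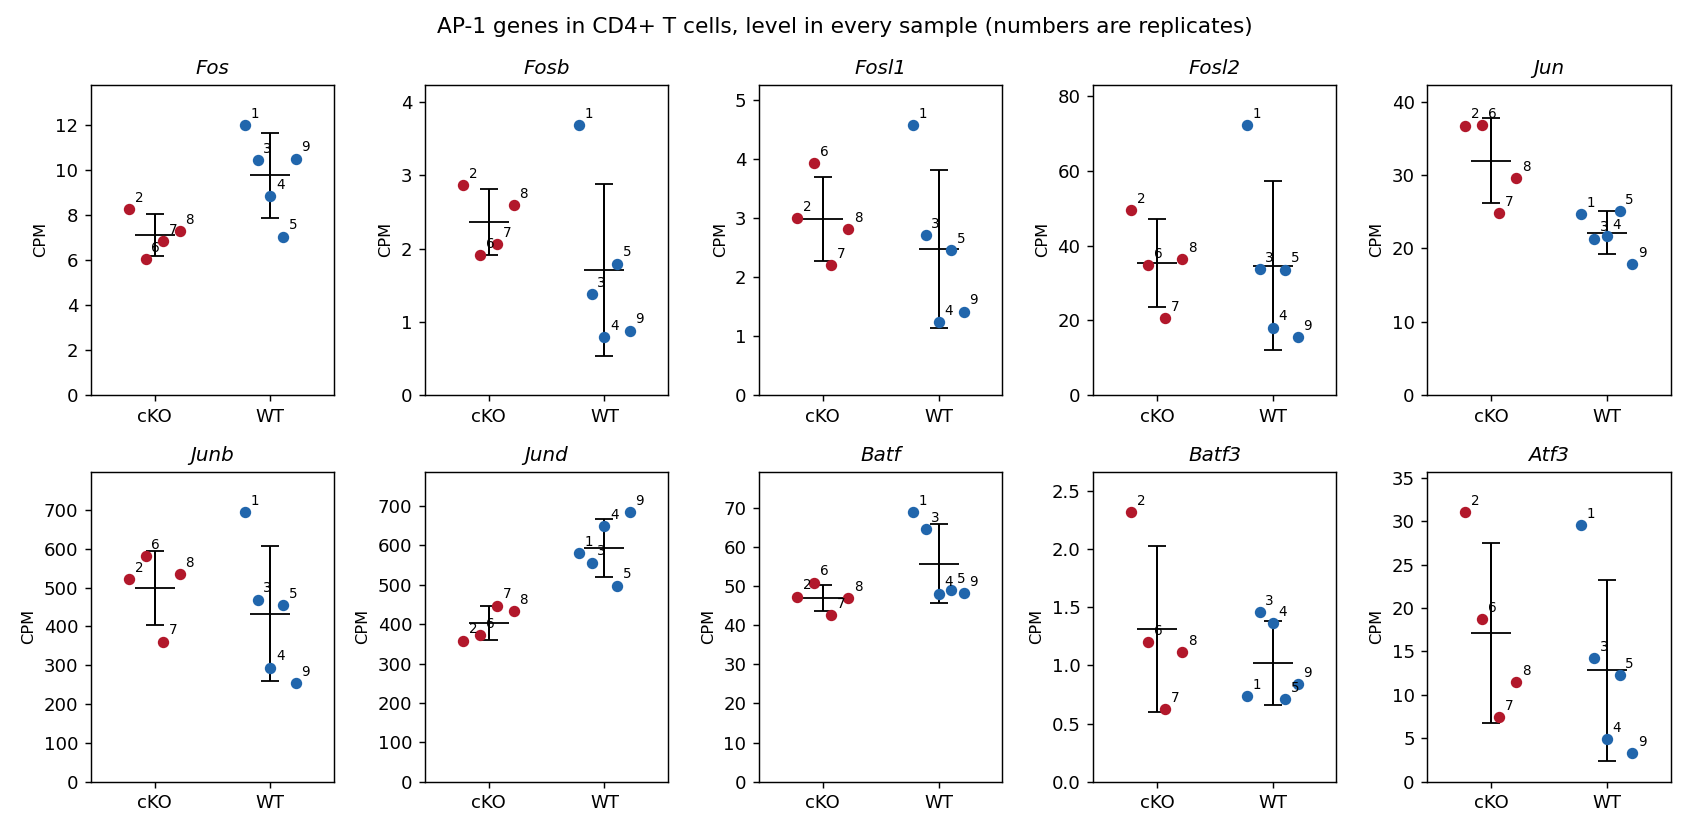
CPM of each AP-1 gene in each sample (numbers are replicates, cKO left and WT right, horizontal bars are means and whiskers 1 SD, with a scale starting at 0 for each gene). Jund separates the groups, Jun nearly does, and in Fosb, Fosl1, Fosl2, Junb and Atf3 WT 1 stands above the other WT samples.

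Of the 4 Fos genes none passed the test, with 1 at an unadjusted p below 0.05 (Fos, 31.1% of all genes tested being below that value). Fos, the immediate-early member whose promoter responds to serum response factor, lies at chr12:85473890-85477273 on the plus strand. It had 8.27, 6.05, 6.82 and 7.29 CPM in cKO samples 2, 6, 7 and 8, against 12.0, 10.4, 8.82, 7.04 and 10.5 CPM in WT samples 1, 3, 4, 5 and 9. All cKO samples were below the 4 highest WT samples, and WT 5 lay among the cKO values. The means were 7.11 ± 0.928 CPM in cKO and 9.75 ± 1.89 CPM in WT, with a log2 fold change of -0.46 (SE 0.15, edgeR adjusted p = 0.0538), just outside the threshold. Fos was lower in cKO in all 9 fits that leave out a sample and passed the test in 2 of them, without cKO 2 (edgeR adjusted p = 0.0427) and without WT 5 (0.0151). In the other 7 the adjusted p was as high as 0.154, without cKO 6, and DESeq2 on all samples gave 0.0240.

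Fosb, an activity-induced Fos protein, lies at chr7:19302696-19310051 on the minus strand and had 18 to 95 counts in a sample. It was the least abundant member per unit of length, while Batf3 had fewer counts. It had 2.87, 1.91, 2.06 and 2.59 CPM in cKO samples 2, 6, 7 and 8, against 3.68, 1.37, 0.794, 1.79 and 0.878 CPM in WT samples 1, 3, 4, 5 and 9. The 4 cKO samples were above 4 of the WT samples and below WT 1. The log2 fold change was 0.46 (SE 0.38, edgeR adjusted p = 0.451), and without WT 1 it was 0.98 (SE 0.25, edgeR adjusted p = 0.0216). WT 1 was the highest sample, so leaving it out lowers the WT mean and gives no separate support. In the other 8 fits that leave out a sample Fosb did not pass, with an edgeR adjusted p as high as 0.679.

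Fosl1, also called Fra-1, which lacks the strong activation domain of Fos, lies at chr19:5447547-5455946 on the plus strand. Its levels were 2.99, 3.93, 2.21 and 2.82 CPM in cKO samples 2, 6, 7 and 8, against 4.57, 2.71, 1.23, 2.46 and 1.41 CPM in WT samples 1, 3, 4, 5 and 9. WT 1 was the highest sample and WT 4 and WT 9 the lowest, with the cKO samples between them. The log2 fold change was 0.27 (SE 0.33, edgeR adjusted p = 0.621). Fosl1 shares 2767 bases with Ccdc85b on the opposite strand, which stayed between 17.0 and 20.8 CPM in the 9 samples (log2 fold change -0.06, edgeR adjusted p = 0.532).

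Fosl2, also called Fra-2, which limits the plasticity of Th17 cells, lies at chr5:32135801-32157842 on the plus strand. Its levels were 49.5, 34.8, 20.5 and 36.4 CPM in cKO samples 2, 6, 7 and 8, against 72.2, 33.8, 18.0, 33.6 and 15.5 CPM in WT samples 1, 3, 4, 5 and 9. The WT samples alone spanned 4.67-fold and enclosed all the cKO values. The means of 35.3 ± 11.9 CPM in cKO and 34.6 ± 22.7 CPM in WT were nearly equal, with a log2 fold change of 0.03 (SE 0.40, edgeR adjusted p = 0.971).

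Batf, the Jun partner that with Irf4 is needed for Th17 and follicular helper cells, lies at chr12:85686669-85709087 on the plus strand. Its levels were 47.2, 50.9, 42.5 and 47.0 CPM in cKO samples 2, 6, 7 and 8, against 68.8, 64.5, 48.0, 48.9 and 48.2 CPM in WT samples 1, 3, 4, 5 and 9. WT 1 and WT 3 were high, and the other 3 WT samples lay within the cKO range. The means of 46.9 ± 3.40 CPM in cKO and 55.7 ± 10.1 CPM in WT gave a log2 fold change of -0.25 (SE 0.11, edgeR adjusted p = 0.164). In the fit with 1 surrogate variable Batf was lower in cKO by the test (log2 fold change -0.37, adjusted p = 0.0077).

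Batf3, best known for its role in the development of cross-presenting dendritic cells, lies at chr1:191097847-191108945 on the plus strand and had only 13 to 55 counts in a sample. It was at 2.32, 1.201, 0.624 and 1.12 CPM in cKO samples 2, 6, 7 and 8, against 0.736, 1.46, 1.37, 0.708 and 0.840 CPM in WT samples 1, 3, 4, 5 and 9. cKO 2 was the highest of all samples and cKO 7 the lowest. The log2 fold change was 0.38 (SE 0.35, edgeR adjusted p = 0.497), and without cKO 2 it was -0.040. The natural killer markers Eomes and Klrk1 were also highest in cKO 2, at 39.0 and 9.36 CPM, against 10.3 to 17.8 and 1.54 to 2.64 CPM in the other cKO samples and 6.45 to 18.2 and 0.573 to 1.68 CPM in WT samples. Only 2 of the 6 natural killer markers had enough counts to be tested, and 3 of the 6 stayed below 1 CPM in every sample. The part of Eomes and Klrk1 in the level of Batf3 was not tested.

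Atf3, a stress-induced member that can repress transcription, lies at chr1:191170296-191218039 on the minus strand and was the most variable member. Its levels were 31.0, 18.7, 7.40 and 11.4 CPM in cKO samples 2, 6, 7 and 8, against 29.5, 14.3, 4.94, 12.2 and 3.24 CPM in WT samples 1, 3, 4, 5 and 9. cKO 2 and WT 1 were the highest of their groups and about equal, and the 9 samples spanned 9.57-fold. The means were 17.2 ± 10.4 CPM in cKO and 12.8 ± 10.4 CPM in WT, with a log2 fold change of 0.42 (SE 0.55, edgeR adjusted p = 0.648). Without cKO 2 the difference was -0.032, and without WT 1 it was 1.01.

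**Figure D3:**
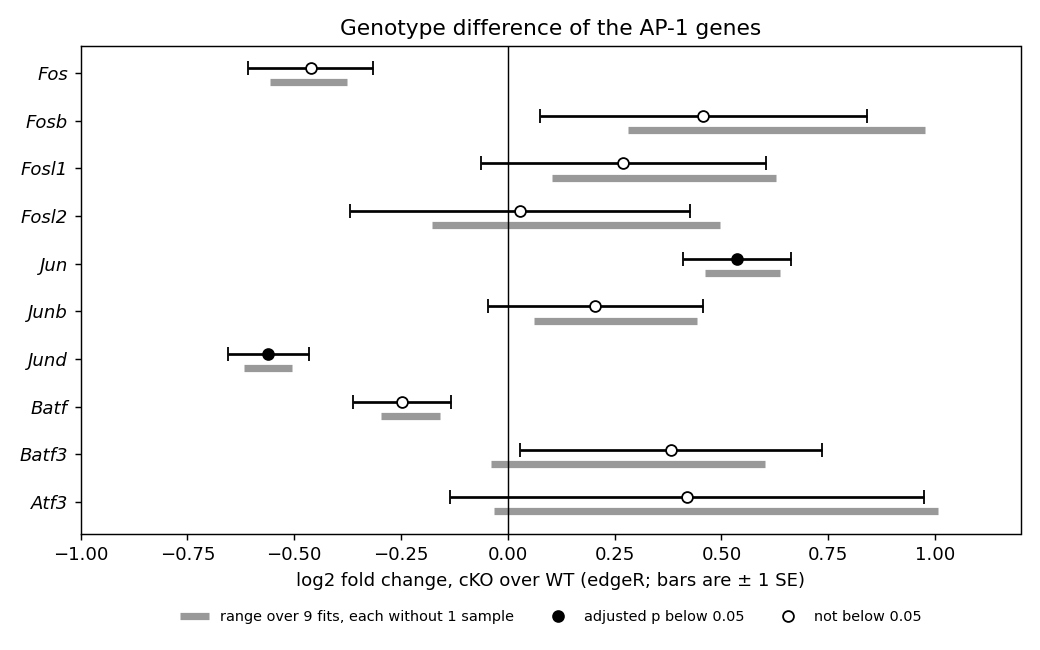
Log2 fold change, cKO over WT, of the 10 AP-1 genes (edgeR; points with whiskers of 1 SE, filled where the adjusted p is below 0.05), and below each point a grey bar over the 9 fits that each leave out 1 sample. Jun at 0.54 and Jund at -0.56 stand apart from 0, and the bar of Atf3 runs from -0.032 to 1.01.

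The spread between samples of the same group was wide for this family. The median SE of the 10 log2 fold changes was 0.29, against 0.07 for all genes tested. The SD of log2 CPM among WT samples was above the 90th percentile of the 13201 genes with at least 1 CPM (0.28) in 7 of the 10 genes, and among cKO samples it was above that percentile (also 0.28) in 5. Neither comparison was matched for level. Counting error adds to the spread of Fosb, Fosl1 and Batf3, which had 13 to 118 counts in a sample. The order of the samples recurred from gene to gene. WT 1 was the highest WT sample in 7 of the 10 genes (all but Jun, Jund and Batf3), and WT 9 or WT 4 was the lowest in 7. Among cKO samples, cKO 2 was highest in 5 genes and cKO 7 lowest in 7. Jund ran the other way, with WT 9 the highest WT sample and cKO 7 the highest cKO sample. The deepest WT libraries were WT 9 and WT 1, with 26387488 and 26205805 counts. They stood at opposite ends of the WT values of Fosl2, Junb and Atf3 and of no other member, and in Fos both were above the other WT samples. Summed levels of the 11 heat shock genes, a list that includes genes raised by handling of cells, were 5432 to 5978 CPM in cKO and 4647 to 5530.1 CPM in WT. Most of that sum was Hsp90ab1, at 4229 to 4617 CPM in cKO and 3568 to 4250 CPM in WT. Hspa1a, Hspa1b and Hspb1 stayed below 1 CPM in every sample. What sets this order of samples was not tested.

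**Figure D4:**
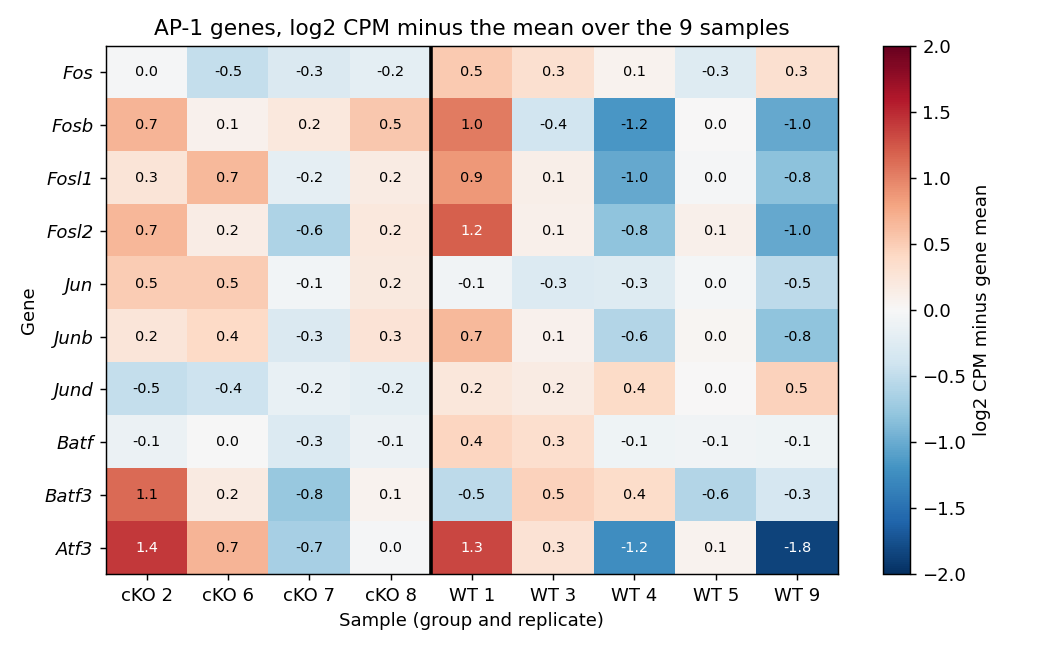
Log2 CPM of each AP-1 gene in each sample minus the gene's mean over the 9 samples, from blue (lower) to red (higher), with cKO samples left of the black line and WT samples right of it. WT 1 and cKO 2 are red in most rows, WT 4 and WT 9 are blue in Fosb, Fosl1, Fosl2, Junb and Atf3, and Jund shows the reverse in WT 4 and WT 9.

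Genes with a profile like that of a family member were ranked over the 9 samples by the root mean square difference of log2 CPM centred on each gene's mean, for the 7 members whose samples spanned at least 1 log2 unit. Junb was most like the hexokinase gene Hk2 (difference 0.09), the membrane fusion gene Stx11 (0.10) and the nuclear receptor gene Rora (0.13). For Fosl1 the nearest genes were Junb itself (0.17), the repressor gene Bhlhe40 (0.18) and the stress gene Gadd45b (0.19). Fosl2 was nearest to Plaur (0.25), Junb (0.28) and Ramp3 (0.29), and Atf3 to the immediate-early gene Ier3 (0.31), Irf8 (0.44) and Fosl2 (0.44). Fosb had the immediate-early genes Maff (0.23) and Nr4a1 (0.26) as nearest, then Zeb2 (0.31). Batf3 was nearest to Tcrg-C4 (0.28), Mocos (0.31) and Iqck (0.32), all at low levels. For Jun the nearest genes were Cnn3 (0.08), Bst2 (0.09) and Pcgf5 (0.09), and the nearest member, Junb, ranked 5220 of 13200 genes (0.33). That difference was no larger than those of Fosb, Atf3 and Batf3 from their nearest member (0.34, 0.44 and 0.49, at ranks 5, 3 and 637). Jun spanned 1.04 log2 units, the least of these 7 members, so the ranks are not comparable between members. Counting error is larger for members at a low level, so the differences are not comparable between members.

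The other immediate-early genes gave a result that turned on WT 1. Of 25 such genes Klf6, a zinc finger factor, rose and Klf2, which keeps T cells quiescent and recirculating, fell, and 23 did not pass the test. That is 8% called, against 15.8% of all genes, with a median log2 fold change of 0.13. The median was 0.27 without WT 1, 0.088 without WT 4 and -0.0059 with 1 surrogate variable. Klf6 averaged 141 ± 8.93 CPM in cKO and 119 ± 5.38 CPM in WT (log2 fold change 0.25, SE 0.05, edgeR adjusted p = 0.0076). Klf2 averaged 84.9 ± 17.3 CPM in cKO and 145 ± 46.0 CPM in WT (log2 fold change -0.78, SE 0.22, edgeR adjusted p = 0.0371), and its call was lost in 7 of the 9 fits that leave out a sample, namely without cKO 2, 6, 7 or 8 or WT 4, 5 or 9. Without WT 1, 11 of the 25 genes were higher in cKO, or 44%, against 9.34% of the 14593 genes tested in that fit (10.8% were lower and 20.1% called in all), and without cKO 2 there were 3. In the other 7 fits that each leave out a sample the number higher was 1, as with all samples. The 11 were Nr4a1, Nr4a2, Nr4a3, Myc, Zfp36l1, Btg2, Klf6, Nfkbia, Tnfaip3, Cd69 and Rel, most of them named after their values were seen. WT 1 was the highest WT sample in all 11, so leaving it out lowers their WT mean and gives no separate support.

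Nr4a3, an orphan nuclear receptor gene induced by antigen receptor signals, had 778, 915, 529 and 722 CPM in cKO samples 2, 6, 7 and 8, against 689, 297, 170.2, 370.0 and 183 CPM in WT samples 1, 3, 4, 5 and 9. Only WT 1 lay within the cKO range. With all 9 samples its log2 fold change was 1.11 (SE 0.35, edgeR adjusted p = 0.0546), and without WT 1 it was 1.53 (SE 0.24, edgeR adjusted p = 0.0027). Rel, an NF-kB subunit gene, had 80.4, 136, 102.0 and 117 CPM in cKO samples 2, 6, 7 and 8, against 111, 54.1, 45.6, 62.0 and 49.5 CPM in WT samples 1, 3, 4, 5 and 9, again with WT 1 alone among the cKO values. Its log2 fold change was 0.75 (SE 0.24, edgeR adjusted p = 0.0560) with all samples and 1.05 (SE 0.14, edgeR adjusted p = 0.0014) without WT 1.

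Upstream of AP-1, 31 genes of the MAP kinase cascades were tested, of which 2 rose, 5 fell and 24 did not pass, or 22.6% called against 15.8% of all genes (7% higher and 8.82% lower), with a median log2 fold change of -0.03. Rps6ka1, a kinase gene downstream of ERK, averaged 175 ± 4.51 CPM in cKO and 220.3 ± 5.49 CPM in WT (log2 fold change -0.33, SE 0.03, edgeR adjusted p = 0.00023). Map3k5, which encodes the stress kinase ASK1 upstream of JNK and p38, averaged 42.4 ± 4.78 CPM in cKO and 72.0 ± 7.43 CPM in WT (log2 fold change -0.77, SE 0.09, edgeR adjusted p = 0.00052). Rps6ka5, which encodes MSK1, and Mapk11, which encodes p38 beta, also fell, with log2 fold changes of -0.41 and -0.27 (edgeR adjusted p = 0.0050 and 0.0078). The call of each of these 4 genes held when any sample was left out. The fifth gene that fell was Rasgrp1, which links the antigen receptor to Ras (log2 fold change -0.39, edgeR adjusted p = 0.0107), and the 2 that rose were Braf (0.18, adjusted p = 0.0188) and Map3k7 (0.22, adjusted p = 0.0365). The Map3k7 call was lost without WT 3, 4, 5 or 9 or cKO 6, 7 or 8, and the number higher was 4 without WT 1 and 1 without WT 3, 4, 5 or 9 or cKO 6 or 7.

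The ternary complex factors and cofactors of serum response factor, which drive Fos, had 0 of 9 genes higher and 2 lower, or 22.2% called against 15.8% of all genes, with a median of -0.08. The 2 were Elk4, at 157 ± 7.18 CPM in cKO and 174 ± 4.55 CPM in WT (log2 fold change -0.15, SE 0.04, edgeR adjusted p = 0.0214), and Mrtfa (log2 fold change -0.21, SE 0.06, edgeR adjusted p = 0.0260). Neither was called without cKO 6, cKO 8 or WT 9, Mrtfa alone lost its call without WT 4, and without cKO 2 there was 1 gene higher.

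Of 28 other bZIP genes tested, the wider class to which AP-1 belongs, 3 rose and 2 fell, or 17.9% against 15.8% of all genes, with a median of 0.05. Bach2, a repressor that competes with AP-1 for its sites and restrains effector differentiation, averaged 334 ± 19.4 CPM in cKO and 271 ± 23.9 CPM in WT (log2 fold change 0.30, SE 0.06, edgeR adjusted p = 0.0094). Atf2, a Jun partner, had a log2 fold change of 0.16 (edgeR adjusted p = 0.0144). Nfe2l1 rose by 0.16 (edgeR adjusted p = 0.0372), a call lost without WT 4, 5 or 9 or cKO 6, 7 or 8. Xbp1, a factor of the unfolded protein response, averaged 184 ± 32.3 CPM in cKO and 283 ± 31.4 CPM in WT (log2 fold change -0.62, SE 0.12, edgeR adjusted p = 0.0060), and Bach1, the relative of Bach2, fell by 0.35 on the log2 scale (edgeR adjusted p = 0.0402). The Bach1 call was lost without WT 1, 4, 5 or 9 or cKO 6, 7 or 8, and the number lower was 1 without WT 4 or 5 or cKO 6, 7 or 8.

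Among 13 genes of NFAT, IRF and other factors that bind beside AP-1, Irf2 rose and Nfatc2 fell, or 15.4% against 15.8% of all genes, with a median of 0.08. Nfatc2, which encodes NFAT1, averaged 170 ± 14.4 CPM in cKO and 235 ± 14.1 CPM in WT (log2 fold change -0.47, SE 0.06, edgeR adjusted p = 0.0011). Irf2 averaged 104 ± 4.49 CPM in cKO and 87.6 ± 3.98 CPM in WT (log2 fold change 0.24, SE 0.04, edgeR adjusted p = 0.0052). Without WT 1 there were 3 genes higher and 2 lower, without cKO 2 there were 2 of each, and without cKO 8 there were 2 lower.

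Downstream, 22 genes of the kind that NFAT and AP-1 are known to activate together were tested, and 1 was called, or 4.55% against 15.8% of all genes, with a median of 0.31. The median was 0.48 without WT 1, 0.19 without WT 4, 0.20 without WT 9, 0.049 without cKO 6 and -0.062 without cKO 2. It was 0.043 with 1 surrogate variable and 0.13 with limma-voom sample weights. The called gene was Il2ra, the high-affinity interleukin-2 receptor chain, at 2569 ± 280 CPM in cKO and 3182 ± 245 CPM in WT (log2 fold change -0.31, SE 0.07, edgeR adjusted p = 0.0190). Il2 had 9.07, 39.0, 12.7 and 19.1 CPM in cKO samples 2, 6, 7 and 8, against 45.7, 11.6, 4.45, 6.61 and 6.15 CPM in WT samples 1, 3, 4, 5 and 9, and did not pass the test (log2 fold change 0.41, SE 0.65, edgeR adjusted p = 0.706). WT 1 was the highest of the 9 samples, as it was for Fos, Fosb, Fosl1, Fosl2, Junb and Batf. Without WT 1, 5 genes were higher in cKO (Il2, Ifng, Cd40lg, Cd69 and Ccl3, or 23.8% against 9.34% of all genes in that fit, named after their values were seen), without cKO 8 there was 1 higher, and without cKO 2 there were 2 lower. WT 1 was the highest WT sample in each of these 5 genes, so leaving it out lowers their WT mean.

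Of 15 tested genes of helper cells that depend on Batf, 1 rose and 2 fell, or 20%, with a median of -0.81 and a mean of -0.52, against 15.8% of all genes. The median was -0.20 without WT 1, -0.34 without WT 3, -0.49 without WT 4 and -0.14 over genes with at least 1 CPM in 4 samples. Il23r, the interleukin-23 receptor of Th17 cells, averaged only 0.625 ± 0.0996 CPM in cKO and 1.53 ± 0.497 CPM in WT (log2 fold change -1.28, SE 0.27, edgeR adjusted p = 0.0097), and its call held when any sample was left out. Prdm1, which encodes Blimp-1, averaged 6.59 ± 2.67 CPM in cKO and 11.6 ± 2.45 CPM in WT (log2 fold change -0.81, SE 0.24, edgeR adjusted p = 0.0448). Ahr, the aryl hydrocarbon receptor, averaged 14.4 ± 3.69 CPM in cKO and 8.55 ± 2.99 CPM in WT (log2 fold change 0.75, SE 0.23, edgeR adjusted p = 0.0491). The Ahr call was lost without WT 3, 4, 5 or 9 or cKO 6, 7 or 8, leaving 0 higher, and the Prdm1 call without WT 3, 4 or 5 or cKO 6, 7 or 8. Without cKO 2 there were 4 lower.

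Among the 8 heat shock genes tested, Hsp90ab1 rose to 4459 ± 171 CPM in cKO, against 3886 ± 297 CPM in WT (log2 fold change 0.20, SE 0.05, edgeR adjusted p = 0.0280). Dnajb1 averaged 93.1 ± 5.52 CPM in cKO and 103 ± 3.35 CPM in WT (log2 fold change -0.14, SE 0.05, edgeR adjusted p = 0.0493). Together that is 25% called, against 15.8% of all genes, with a median of 0.09. The Hsp90ab1 call was lost without cKO 2, 6 or 8 or WT 4 or 9, and the Dnajb1 call without any sample other than cKO 2. Without WT 1 there were 3 genes higher.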

How the data were processed

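RNA-seq of 9 samples was analysed, 4 cKO and 5 WT. Libraries were made with a stranded KAPA kit after mRNA enrichment, per the labels' protocols, and the submitters' processing notes name bcl2fastq 2.17 and mm10. The authors deposited raw whole-number counts per gene. The sources used here do not give the aligner, counter, strand setting or annotation. Columns were matched to samples by title, and 0 columns belonged to no sample. Positions and exonic lengths came from GENCODE M21 (37693 genes), symbols were found for 37607 of 39017 IDs, and promoters came from RefSeq. Counts were tested with the quasi-likelihood test of edgeR 4.0.16 in R 4.3.3, two-sided, with TMM normalization, filterByExpr and no covariate. The biological coefficient of variation was 8.04%. CPM used the totals over the tested genes times the TMM factors, and TPM used raw counts without those factors. Within groups the chi-square per gene between samples ran from 3.48 to 21.9, so no pair agreed within sampling noise. Alternatives used DESeq2 1.42.0, limma 3.58.1 and sva 3.50.0, and each sample was left out in turn. GC and length offsets were added after seeing the data. The tests were tested on simulated counts with the spread typical of genes at each level. There edgeR recovered 30% of 1.2-fold, 76% of 1.5-fold and 98% of 2-fold changes, and 10 of 161 calls were false. Most AP-1 genes varied more between samples than most genes, so these rates need not hold for them. The 10 genes and all lists were chosen with earlier results of these data known. The text names the 10 genes, Kdm6a, from each list up to 4 called genes, taken by adjusted p, and the 3 nearest genes by profile of each member that varied by at least 1 log2 unit and averaged at least 1 CPM. Genes outside this rule were picked to complete a count or after their values were seen.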

Additional observations from a re-analysis of the deposited data

Results flagged for a closer look

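Of 62 groups of 4 or 5 samples that were checked for a sample far from the others, 3 had one, where chance gives about 1 in 20. None was an AP-1 gene. The heat shock gene Dnajb1 was at 109 CPM in WT 5, against 101 to 102 CPM in the other WT samples. The kinase gene Map3k5 was at 35.3 CPM in cKO 6, against 44.1 to 45.8 CPM in the other cKO samples, so the sample farthest out was also farthest from WT. The bZIP gene Nfe2l1 was at 163 CPM in cKO 6, against 148 to 149 CPM in the other cKO samples.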

How the results depend on the processing

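No paired analysis was possible because the replicate numbers are unique across the groups. The alternatives were 10 other settings and 9 fits that each left out 1 sample. Jund stayed lower and called in all 19, at log2 fold changes of -0.62 to -0.46, and Kdm6a kept its direction and call in all 19. The number of AP-1 genes higher in cKO was 1 in the 10 other settings and 0 to 2 with a sample left out (0 without cKO 6, 2 without WT 1). The number lower was 2 with no count filter, 2 with DESeq2 and 3 with 1 surrogate variable, where Fos was called and in the last also Batf, and 1 to 2 with a sample left out (2 without cKO 2 or WT 5). With 1 surrogate variable the direction turned for Fosl1 (-0.082), Fosl2 (-0.37), Junb (-0.067) and Atf3 (-0.19). With a sample left out, the log2 fold change ran from -0.18 to 0.50 for Fosl2, turning without cKO 2, WT 4 or WT 9 (-0.18, -0.13 and -0.16), from -0.040 to 0.60 for Batf3 and from -0.032 to 1.01 for Atf3, both turning without cKO 2. The cause of these turns was not tested. Of 380 values for 20 other named genes, 317 kept direction and call, 63 lost the call and 0 turned. Over all genes, 531 to 1363 were higher and 732 to 1570 lower with a sample left out (531 and 732 without cKO 6, 1363 and 1570 without WT 1). Of the calls 44.2% were higher in cKO, and 54.2% under upper-quartile scaling. By CPM without length, the Fos genes held 4.53% of the family in cKO and 3.99% in WT, and Batf, Batf3 and Atf3 6.23% in cKO and 5.88% in WT. The 3 nearest genes of each member were the same with DESeq2 size factors. Counting error limits Fosb and Batf3, which had fewer than 100 counts in each sample.

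The counts of the gene lists, which are small, moved as follows. Other bZIP genes had 1 lower under upper-quartile scaling and 4 with 1 surrogate variable. MAP kinase genes had 5 higher under upper-quartile scaling, and 1 with the surrogate variable or GC and length offsets. Serum response cofactors had 1 lower with those offsets. Other immediate-early genes had 2 higher with DESeq2 or the surrogate variable, 3 with limma-voom, 4 under upper-quartile scaling, 5 with no count filter and 7 with limma-voom sample weights. They had 0 lower with limma-voom, robust fitting or the offsets and 2 with the surrogate variable. NFAT and IRF partners had 2 higher with sample weights, and 2 lower with no filter, DESeq2, sample weights or the surrogate variable. NFAT and AP-1 targets had 2 higher with no filter and 1 with DESeq2 or sample weights, and 2 lower with DESeq2 or sample weights and 4 with the surrogate variable. Batf-dependent genes had 0 higher with the stricter filter, robust fitting, the surrogate variable or the offsets, and 4 lower with no filter or DESeq2, 1 with robust fitting and 5 with the surrogate variable. Heat shock genes had 2 higher under upper-quartile scaling, no filter or DESeq2 and 3 with the surrogate variable, and 0 lower with DESeq2 size factors, upper-quartile scaling, no filter, the stricter filter or the offsets. With a sample left out, the ranges higher and lower were 2 to 4 and 1 to 3 for other bZIP genes, 1 to 4 and 5 to 6 for MAP kinase genes, 0 to 1 and 0 to 2 for serum response cofactors and 1 to 11 and 0 to 1 for other immediate-early genes. They were 1 to 3 and 1 to 2 for NFAT and IRF partners, 0 to 5 and 1 to 2 for NFAT and AP-1 targets, 0 to 1 and 1 to 4 for Batf-dependent genes, and 0 to 3 and 0 to 1 for heat shock genes. The medians near 0 turned with a sample left out, from -0.033 to 0.17 for NFAT and IRF partners and from -0.024 to 0.070 for other bZIP genes. With 1 surrogate variable they were -0.053 and -0.030, and that of other immediate-early genes was -0.0059. The cause was not tested.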
